A study of Mus musculus with 64 samples.

Results

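The galectins *Lgals1*, *Lgals3*, *Lgals8* and *Lgals9* and the galectin-3 binding protein *Lgals3bp* are described here across 62 libraries of retinal microglia. The 5 genes were chosen by symbol, out of 25239 genes in the deposited table of batch-corrected counts, and the values below are CPM, counts relative to the library size after TMM scaling. The mice were Cx3cr1CreER:R26-tdTomato +/- animals of 3, 9 and 18 months and both sexes, all treated with tamoxifen drops, so that Cre recombination under *Cx3cr1*, a microglial and macrophage gene, marked the cells in red. Eyes were either naive, with no injection, or were taken 12 (D12) or 28 (D28) days after an intravitreal injection of AAV2 without a transgene at 1e10 genome copies per eye. Each library came from 600 sorted cells of 1 retina, with 19 naive, 22 D12 and 21 D28 libraries in 18 groups of 2 to 4. Only naive eyes served as the control, so that injection and vector cannot be told apart.

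Galectins are soluble lectins that bind beta-galactoside sugars on glycoproteins, either outside the cell after an unconventional secretion or inside it on damaged vesicles. Galectin-3 is the form with an aggregating tail, and is known in the brain and retina as a product of reactive microglia and macrophages. Galectin-1 forms dimers, while galectin-8 and galectin-9 each join a pair of sugar-binding domains on 1 chain. Galectin-3 binding protein is a heavily glycosylated secreted protein that binds galectins, and its gene is known as interferon-responsive in many cell types.

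The genes lie apart on GRCm38, the assembly that mm10 names. *Lgals3* is on chromosome 14 (47367751 to 47386160, plus strand), *Lgals1* on chromosome 15 (78926725 to 78930465, plus strand) and *Lgals8* on chromosome 13 (12439415 to 12464944, minus strand). *Lgals9* (78962974 to 78984946, minus strand) and *Lgals3bp* (118392751 to 118402092, minus strand) are both on chromosome 11. RefSeq promoter windows were at hand for 4 of the 5 members, and 3 are shown. *Lgals3bp* and *Lgals3* are shown because they changed with the injection. The *Lgals9* window is shown because it holds most matches to the interferon-type motifs searched. Each window is the 250 bases before the start annotated in RefSeq, 5′ to 3′ on the gene's strand (GRCm38.p6). Matches on either strand to the interferon-type motifs AANNGAAA and GAAANNGAAA are in capitals. The windows lie at chr11:118401960-118402209 for *Lgals3bp*, chr11:78984925-78985174 for *Lgals9* and chr14:47373610-47373859 for *Lgals3*. The gene spans above are from GENCODE M21, and their ends are not the RefSeq starts. The windows of *Lgals3* and *Lgals8* lie inside the spans given for these genes, and those of *Lgals3bp* and *Lgals9* overlap the ends of theirs. Other starts of these genes were not searched.
Lgals3bp: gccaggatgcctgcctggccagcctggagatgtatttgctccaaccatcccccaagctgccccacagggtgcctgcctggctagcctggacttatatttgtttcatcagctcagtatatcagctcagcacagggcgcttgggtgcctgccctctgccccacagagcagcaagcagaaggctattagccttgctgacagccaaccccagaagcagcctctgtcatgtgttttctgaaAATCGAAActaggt
Lgals9: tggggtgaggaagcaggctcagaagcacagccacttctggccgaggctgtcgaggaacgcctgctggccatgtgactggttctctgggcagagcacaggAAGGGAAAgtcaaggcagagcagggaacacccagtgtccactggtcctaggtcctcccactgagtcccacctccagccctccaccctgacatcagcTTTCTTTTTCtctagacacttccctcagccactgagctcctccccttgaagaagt
Lgals3: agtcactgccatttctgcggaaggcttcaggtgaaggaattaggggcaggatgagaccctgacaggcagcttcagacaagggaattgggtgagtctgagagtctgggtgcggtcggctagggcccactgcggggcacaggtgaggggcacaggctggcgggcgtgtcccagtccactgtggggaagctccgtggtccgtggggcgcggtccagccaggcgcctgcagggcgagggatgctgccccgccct
In windows that also take in 50 bases after the start, searched on both strands, *Lgals3bp* held 1 match to AANNGAAA, 14 bases before the start. *Lgals9* held 3, at 151 and 55 bases before and 15 bases after the start, the last 2 on the reverse strand and each within the longer motif GAAANNGAAA, whose letters contain the shorter one. No match lay in the windows of *Lgals3* and *Lgals8*. A STAT-type motif, TTCNNNGAA, was searched too and had no match in the windows of the 4 members. Of all 32851 promoter windows, 23.9% held AANNGAAA, 3.44% held GAAANNGAAA and 8.3% held TTCNNNGAA, and a match is a description of the letters only.

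Library totals ran from 1468478 to 9836173 corrected counts (median 4188992), and a gene at 3 counts corresponded to 0.365 to 2.1 CPM. All 5 members were above 3 counts in each library, except *Lgals8* in 1 naive library, and passed the filter on low counts in all 37 comparisons. The 8 microglia markers (*P2ry12*, *Tmem119* and others) were all detected and summed to 26365 to 45555 CPM in naive libraries (median 31940), 8380 to 31597 at D12 (median 15018) and 15945 to 41242 at D28 (median 23384). Markers of other cells differed between the days as well. The 6 T cell markers summed to medians of 1.27 CPM naive, 109 at D12 and 60.7 at D28 (ranges 0 to 131, 1.57 to 327 and 11.9 to 165). The 6 monocyte markers summed to medians of 12.0, 67.2 and 8.15 CPM (ranges 0.233 to 118, 5.05 to 1089 and 0.254 to 59.2), with *Chil3* at 0 in every naive and D28 library. The 4 border macrophage markers had medians of 61.7, 3.61 and 3.52 CPM (ranges 0 to 278, 0 to 26.0 and 0 to 43.8). The 5 photoreceptor markers had medians of 1653, 709 and 1342 CPM (ranges 491 to 2889, 381 to 2517 and 673 to 2351) and the 4 Muller glia markers 314, 344 and 380 CPM (249 to 373, 225 to 519 and 304 to 453). The 4 neutrophil markers had a median of 0 at each day and at most 31.5 CPM, with *S100a9* and *Ly6g* at 0 in naive libraries, and the 3 endothelial markers stayed at or under 9.23 CPM, with *Cldn5* at 0 in naive libraries. The part of these cells in the members' values was not tested, and in bulk libraries a change in the cells sorted and a change in RNA per cell cannot be told apart.

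A few libraries stood apart. Naive replicate 1 of the 9-month-old females and naive replicate 1 of the 18-month-old females correlated least with their own groups (median Pearson r of log2 CPM 0.839 and 0.759, against a median of 0.930 over the 62 libraries), and had 10505 and 11045 genes detected against a median of 12930. D28 replicate 4 of the 18-month-old males carries 2 day labels and was kept at D28 by its title. The value without them is given beside each single log2 value that they reversed, moved by more than 1.5 times or moved across the threshold.

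Per kilobase of merged exon, the order of the members changed with the injection. In naive libraries *Lgals9* was highest, with a median level of 240 CPM per kilobase (170 to 343, n = 19), followed by *Lgals3bp* at 83.8 (42.7 to 328). *Lgals1* (38.2, from 8.64 to 760), *Lgals8* (26.3, from 0.111 to 41.1) and *Lgals3* (22.5, from 1.59 to 1074) lay lower, and their ranges overlapped. At D12 *Lgals3bp* led with a median level of 530 CPM per kilobase (244 to 1040, n = 22), ahead of *Lgals9* at 310 (142 to 613) and *Lgals3* at 233 (55.0 to 615). At D28 the medians of *Lgals3bp* (263) and *Lgals9* (246) lay close together, with *Lgals3* at 114 CPM per kilobase (n = 21). Neighbours in each order overlapped, and no test was made between genes.

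The first question was how each member changed from naive microglia of the same age and sex. *Lgals3* and *Lgals3bp* changed, and all 9 calls among members in the 12 comparisons belonged to them and were higher after injection. *Lgals3* was called in 3 of 6 strata of age and sex at D12 and in 2 at D28, and *Lgals3bp* in 3 at D12 and in 1 at D28. *Lgals1*, *Lgals8* and *Lgals9* were called in none.

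In 3-month-old females, *Lgals3* was at 28.8, 11.3, 7.41 and 17.4 CPM in the naive libraries. It was at 367, 403, 356 and 356 CPM at D12. At D28 it was at 71.2, 131, 571 and 413 CPM. Every injected library lay above every naive one, and the spread was wide at D28 only, where the lower pair came from the first collection day and the higher pair from the second. The log2 fold change was 4.49 at D12 (SE, its standard error, 0.51, edgeR glmTreat adjusted p = 2.28e-05) and 4.16 at D28 (SE 0.50, edgeR adjusted p = 0.000187). *Lgals3bp* was at 191, 200, 281 and 422 CPM naive, 1625, 1974, 2174 and 1432 CPM at D12, and 447, 601, 643 and 715 CPM at D28. The groups did not overlap, and the log2 fold change was 2.71 at D12 (SE 0.26, edgeR adjusted p = 1.79e-05) and 1.13 at D28 (SE 0.25, edgeR adjusted p of 1, against a change of 1). These 2 members of 5 were called at D12, where 2.43% of all genes tested were, and 1 of 5 at D28, where 0.440% were.

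In 3-month-old males, *Lgals3* was at 63.0, 42.1 and 2.95 CPM naive. It was at 421, 352, 493 and 731 CPM at D12 and at 202, 202 and 189 CPM at D28. No injected library fell into the naive range. The log2 fold change was 3.73 at D12 (SE 0.51, edgeR adjusted p = 0.000474) and 2.42 at D28 (SE 0.50), where the edgeR adjusted p of 0.136 missed the threshold. *Lgals3bp* was at 122, 209 and 186 CPM naive, at 1388, 2043, 1591 and 1725 CPM at D12, and at 552, 750 and 583 CPM at D28. Its log2 fold change of 3.28 at D12 (SE 0.22, edgeR adjusted p = 2.94e-07) was the largest it had in any stratum. At D28 it was 1.87 (SE 0.22, edgeR adjusted p = 0.0105). Of the 5 members, 2 were called at D12 against 3.77% of all genes and 1 at D28 against 0.701%. Without naive replicate 1, the *Lgals3* value at D28 became 3.04 (edgeR adjusted p = 0.0478) and the *Lgals3bp* value 1.68 (edgeR adjusted p = 0.0669), and without D28 replicate 2 the *Lgals3bp* value was 1.72 (edgeR adjusted p = 0.0857).

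In 18-month-old males, the naive libraries were tight, with *Lgals3* at 37.1, 44.4, 41.7 and 54.2 CPM. *Lgals3* was at 337, 1143 and 488 CPM at D12 and at 337, 327, 290 and 213 CPM at D28. All injected libraries were above all naive ones. The log2 fold change was 3.90 at D12 (SE 0.36, edgeR adjusted p = 1.13e-05) and 2.71 at D28 (SE 0.33, edgeR adjusted p = 0.00273). *Lgals3bp* was at 367, 250, 223 and 239 CPM naive, 1335, 1185 and 2227 CPM at D12, and 660, 1034, 1106 and 1130 CPM at D28. It rose at D12 by a log2 fold change of 2.57 (SE 0.28, edgeR adjusted p = 0.00024), and at D28 its value of 1.86 (SE 0.26) fell just outside the threshold (edgeR adjusted p = 0.0540). The last value was called without D28 replicate 1 (log2 fold change 1.99, edgeR adjusted p = 0.0268), without naive replicate 1 (2.04, edgeR adjusted p = 0.0301) and without D12 replicate 3 (1.86, edgeR adjusted p = 0.0193). Without D28 replicate 4, the library with 2 day labels, the D28 values were 2.84 for *Lgals3* (edgeR adjusted p = 0.00167) and 1.79 for *Lgals3bp* (edgeR adjusted p = 0.0964). With all 18 groups in 1 fit, the *Lgals3* call at D28 was lost (2.7, edgeR adjusted p = 0.556). At D12 2 of 5 members were called, with 4.16% of all genes called, and at D28 1 of 5, with 0.684%. The monocyte markers were at 160 to 405 CPM in these D12 libraries, against 14.4 to 31.1 CPM naive and 2.30 to 22.7 CPM at D28, and their part in the result was not tested.

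**Figure D1:**
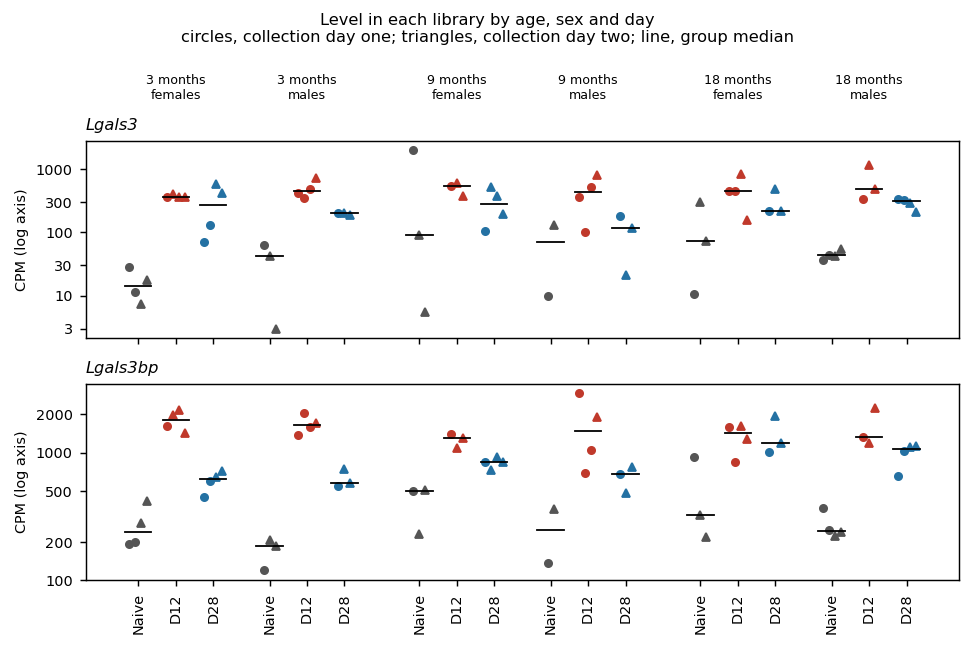
Level of *Lgals3* (top) and *Lgals3bp* (bottom) in CPM on log axes, with 1 point per library (circles and triangles for the first and second collection day), grouped by age, sex and day, and with the group median as a line. The D12 and D28 points of *Lgals3bp* lie above the naive points of their own age and sex in all strata but 18-month-old females at D12, and the highest *Lgals3* point of all, at 1995 CPM, is a naive library of the 9-month-old females.

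In 9-month-old females the *Lgals3* result turned on 1 library. The naive libraries were at 1995, 91.1 and 5.53 CPM, and the first of these was the highest of all 62. At D12 the level was 547, 607 and 379 CPM, and at D28 it was 106, 529, 369 and 195 CPM. With all libraries the log2 fold change was -0.41 at D12 (SE 1.14) and -1.19 at D28 (SE 1.06), each with an edgeR adjusted p of 1. Without naive replicate 1 it was 3.38 at D12 (SE 0.84, edgeR adjusted p = 0.0660) and 2.60 at D28 (SE 0.79, edgeR adjusted p = 0.554), with 2 naive libraries left. *Lgals1* was at 686 CPM in the same library, again the highest of all 62, against 7.81 and 13.9 CPM in the other naive libraries of the group. The summed monocyte markers were at 0.860 CPM in that library and its T cell and neutrophil markers at 0. Its border macrophage markers summed to 61.7 CPM (*Mrc1* at 34.4 and *F13a1* at 25.6 CPM), against 22.8 and 12.0 CPM in the other naive libraries of the group and a median of 61.7 CPM over all naive libraries, while its 8 microglia markers summed to 27077 CPM and its photoreceptor markers to 2673 CPM.

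*Lgals3bp* did not share that pattern. It was at 498, 230 and 511 CPM in the naive 9-month-old females, at 1390, 1085 and 1301 CPM at D12 and at 844, 730, 922 and 840 CPM at D28. The 3 groups did not overlap. The log2 fold change of 1.62 at D12 (SE 0.30, edgeR adjusted p = 0.151) and of 1.02 at D28 (SE 0.28, edgeR adjusted p of 1) did not pass the test against a change of 1. No member was called at either day, where 2.52% and 0.461% of all genes were.

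In 9-month-old males there were only 2 naive libraries. *Lgals3* was at 9.84 and 132 CPM naive, at 361, 102, 523 and 821 CPM at D12, and at 179, 21.3 and 116 CPM at D28. The groups overlapped at both days. The log2 fold change was 2.67 at D12 (SE 1.0, edgeR adjusted p = 0.532) and 0.58 at D28 (SE 0.94, edgeR adjusted p of 1), and the D28 value became -0.33 without naive replicate 1, 3.4 without naive replicate 2 and -0.03 without D28 replicate 2. *Lgals3bp* was at 138 and 360 CPM naive, 2960, 695, 1055 and 1894 CPM at D12, and 680, 483 and 778 CPM at D28. Neither injected group overlapped the naive one, with a log2 fold change of 2.73 at D12 (SE 0.62, edgeR adjusted p = 0.120) and 1.39 at D28 (SE 0.60, edgeR adjusted p of 1). D12 replicate 2 was the lowest of its group in *Lgals3*, *Lgals3bp* and *Lgals9* (459 CPM), and its microglia markers summed to 26768 CPM. Without it the D12 value of *Lgals3bp* was 2.98 (edgeR adjusted p = 0.0207), and the share of all genes called rose from 0.954% to 2.84%. No member was called at either day with all libraries, with 0.129% of all genes called at D28.

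In 18-month-old females no gene at all was called by edgeR at D12 (0% of 11159, 485 with an unadjusted p under 0.05) or at D28 (0% of 11159, 371 with an unadjusted p under 0.05), and DESeq2 called 8 and 15 genes. *Lgals3* was at 10.6, 301 and 72.0 CPM naive, 445, 458, 845 and 157 CPM at D12, and 220, 476 and 218 CPM at D28. The naive library at 301 CPM lay within the range of both later groups. Against naive, the log2 value was 1.92 at D12 (SE 0.83) and 1.25 at D28 (SE 0.85), each with an edgeR adjusted p of 1. *Lgals3bp* was at 934, 327 and 218 CPM naive, at 1588, 850, 1628 and 1288 CPM at D12, and at 1013, 1930 and 1189 CPM at D28. On the log2 scale the difference from naive was 1.46 at D12 (SE 0.48) and 1.47 at D28 (SE 0.50), each with an edgeR adjusted p of 1. Naive replicate 1, at 934 CPM, is the library with the weakest correlation to its group, and its summed monocyte markers were at 118 CPM, the highest naive value. Without it the *Lgals3bp* values were 2.30 (SE 0.41, edgeR adjusted p = 0.794) and 2.32 (SE 0.42, edgeR adjusted p = 0.356), those of *Lgals3* were 1.36 and 0.69, and still no gene was called. The D12 group was also split by collection day. Replicates 1 and 2, from the first day, had microglia markers at 31597 and 27239 CPM and T cell markers at 1.57 and 10.5 CPM. Replicates 3 and 4, from the second, had 13572 and 13314 CPM, and 327 and 186 CPM. Naive libraries of the group had 26365 to 31940 CPM, and 0.748 to 4.70 CPM. The part of this split in the result was not tested.

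Within the 2 collection days, each of which held libraries of every group, *Lgals3bp* was higher at D12 than in naive libraries in 6 of 6 strata on the first day (median log2 ratio of mean levels 2.58, from 0.384 to 3.78) and in 6 of 6 on the second (2.41, from 1.69 to 3.13). At D28 it was higher in 6 of 6 strata on each day (1.44, from 0.118 to 2.3, and 1.46, from 0.806 to 2.52). *Lgals3* was higher at D12 in 5 of 6 strata on the first day (median log2 ratio 3.62), the exception being 9-month-old females, and in 6 of 6 on the second (3.72). At D28 it was higher in 5 of 6 strata on each day (2.68, from -4.24 to 4.37, and 2.65, from -0.945 to 5.31). Within a day some strata held only 1 library on a side, the counts had already been adjusted for collection day, and these ratios were not tested.

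**Figure D2:**
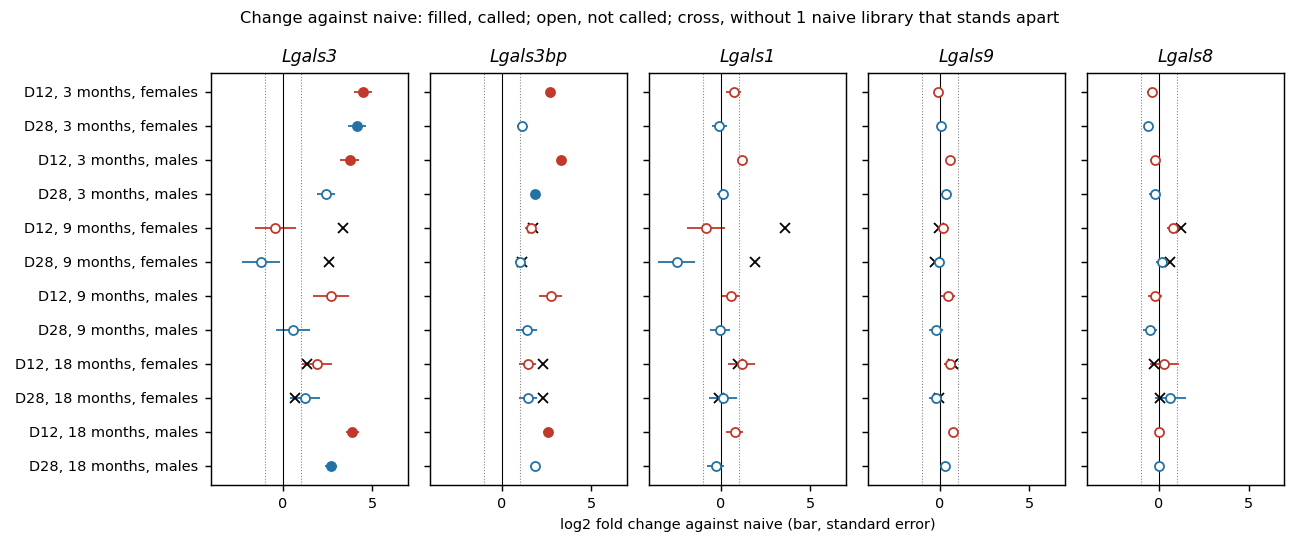
Log2 fold change against naive (horizontal axis) with its SE for each member in the 12 comparisons of day with naive, red for D12 and blue for D28, filled where called, with dotted lines at a change of 1 in either direction. Crosses give the value without naive replicate 1 in the 9- and 18-month-old females, and in the 9-month-old females they move *Lgals3* from -0.41 to 3.38 and *Lgals1* from -0.80 to 3.59 at D12.

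*Lgals1* was lower and more variable. Its median level was 34.5 CPM in naive libraries (7.81 to 686, n = 19), 66.9 at D12 (22.4 to 373, n = 22) and 35.3 at D28 (6.45 to 136, n = 21). It was not called against naive in any stratum. The most even difference was in 3-month-old males, with 34.5, 41.2 and 17.3 CPM naive and 88.2, 68.1, 81.7 and 47.1 CPM at D12. These groups did not overlap, and the log2 fold change was 1.17 (SE 0.29, edgeR adjusted p = 0.959 against a change of 1). The naive and D12 groups overlapped in all other strata. In 9-month-old females the D12 libraries were at 85.4, 182 and 128 CPM and the D28 libraries at 30.9, 68.1, 45.9 and 22.3 CPM. With the naive library at 686 CPM the log2 fold change was -0.80 at D12 (SE 1.07, edgeR adjusted p of 1) and -2.46 at D28 (SE 1.01, edgeR adjusted p of 1). Without it the values were 3.59 (SE 0.51, edgeR adjusted p = 0.00148), past the threshold, and 1.93 (SE 0.47, edgeR adjusted p = 0.430).

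*Lgals9*, whose product is a ligand of Tim-3, was called in none of the 37 comparisons. Its median level was 514 CPM naive (364 to 734, n = 19), 662 at D12 (303 to 1311, n = 22) and 525 at D28 (383 to 787, n = 21). The log2 fold changes at D12 ran from -0.09 to 0.75 and at D28 from -0.23 to 0.36 over the 6 strata, with none called. In 18-month-old males the groups did not overlap, with 534, 541, 469 and 431 CPM naive and 893, 984 and 587 CPM at D12 (log2 fold change 0.75, SE 0.23, edgeR adjusted p of 1). In 3-month-old males they did not overlap either, with 520, 529 and 364 CPM naive and 595, 844, 706 and 667 CPM at D12 (log2 fold change 0.57, SE 0.18, edgeR adjusted p of 1). In all other strata the naive and D12 groups overlapped. How many of all genes lacked overlap in these groups was not counted, so the lack of overlap is a description only. The highest library of all, D12 replicate 4 of the 18-month-old females at 1311 CPM, was also the one with the most monocyte marker signal, at 1089 CPM summed, and was second to the naive 9-month-old female library in *Lgals1*, at 373 CPM.

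*Lgals8*, whose product marks damaged vesicles inside the cell, was not called in any of the 37 comparisons. Its median level was 97.0 CPM naive, 95.7 at D12 and 89.2 at D28, and its log2 fold changes against naive ran from -0.39 to 0.77 at D12 and from -0.58 to 0.64 at D28, with none called. The values ranged from 35.6 to 161 CPM in all libraries but 1, the naive 18-month-old female replicate 1, where *Lgals8* had 1 count (0.410 CPM, under the floor of 3 counts). The highest D28 value, 0.64, was that of the 18-month-old females and includes this library. The other naive libraries of the group were at 86.0 and 97.7 CPM, and its D28 libraries at 82.9, 116 and 88.7 CPM. *Lgals8* exons share 155 of 3688 bases with *Heatr1* on the opposite strand, and whether counting used the strand is not given in the sources used here.

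**Figure D3:**
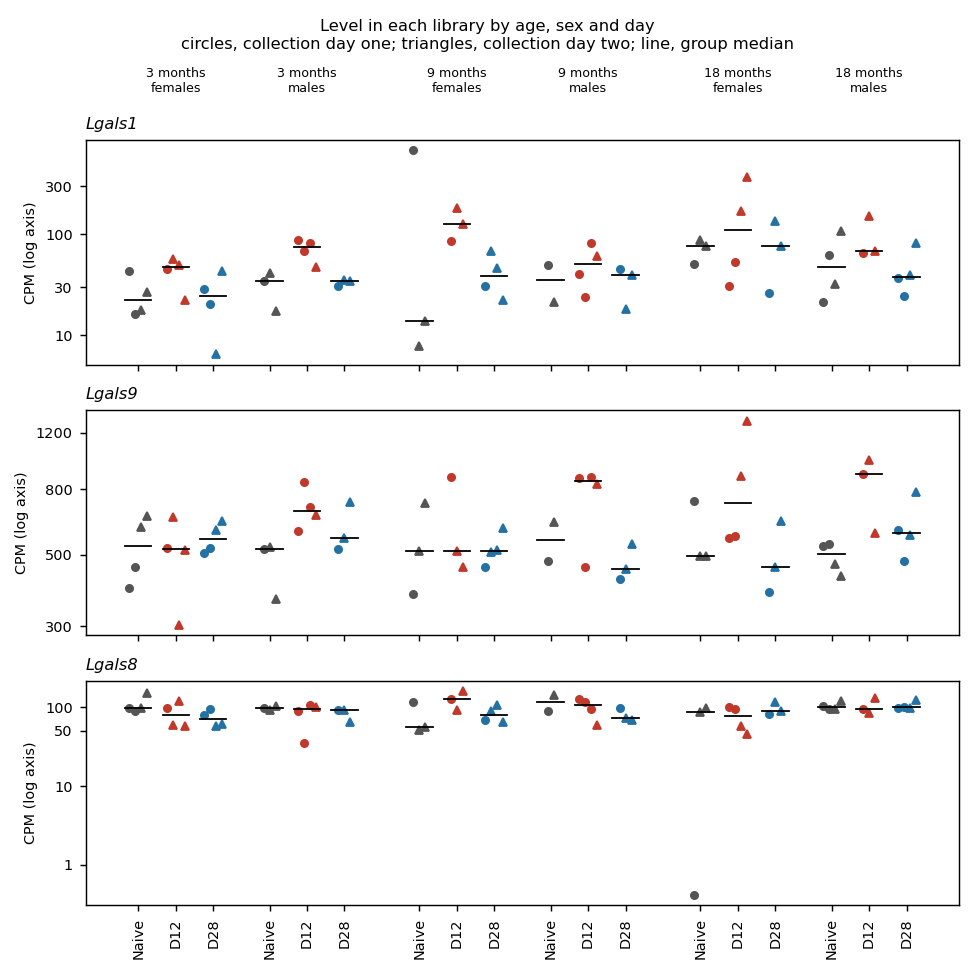
Level of *Lgals1*, *Lgals9* and *Lgals8* in CPM on log axes, with 1 point per library (circles and triangles for the first and second collection day), grouped by age, sex and day, and with the group median as a line. *Lgals1* has a single naive point at 686 CPM in 9-month-old females, *Lgals9* spreads upward at D12 to 1311 CPM, and *Lgals8* stays between 35.6 and 161 CPM except for 1 naive library at 0.410 CPM.

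D28 was then compared with D12, with both sexes averaged. *Lgals3bp* came down between these days at 3 months, with a mean level of 1744 CPM at D12 (SD 290, n = 8) and 613 CPM at D28 (SD 102, n = 7). The groups did not overlap, and the log2 fold change was -1.49 (SE 0.17, edgeR adjusted p = 1.13e-06). At 9 months it was 1483 CPM (SD 748, n = 7) and 754 CPM (SD 144, n = 7), and the change was -0.94 on the log2 scale (SE 0.29, edgeR adjusted p = 0.0555). That call was lost without D12 replicate 1 of the males (edgeR adjusted p = 0.134) and without their D28 replicate 3 (edgeR adjusted p = 0.160). At 18 months it was 1443 CPM (SD 433, n = 7) and 1152 CPM (SD 384, n = 7), and the change was -0.34 on the log2 scale (SE 0.27, edgeR adjusted p = 0.661). By sex, the 18-month-old means at D12 and D28 were 1582 and 982 CPM in males (n = 3 and 4). In females they were 1338 and 1377 CPM (n = 4 and 3), and this change was not tested by sex. *Lgals1* fell at 3 months (log2 value -0.94, SE 0.29, edgeR adjusted p = 0.0411), its mean level being 57.5 CPM at D12 (SD 21.3, n = 8) and 28.5 CPM at D28 (SD 12.0, n = 7). Its values of -1.10 at 9 months (edgeR adjusted p = 0.322) and -1.04 at 18 months (edgeR adjusted p = 0.329) did not pass, and the first passed without naive replicate 1 of the females (edgeR adjusted p = 0.0241), which enters the shared estimate of the spread.

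*Lgals3* was lower at D28 than at D12 in all 3 ages without being called, with log2 fold changes of -0.81 (edgeR adjusted p = 0.179), -1.41 (edgeR adjusted p = 0.295) and -0.92 (edgeR adjusted p = 0.365) at 3, 9 and 18 months. At 3 months it passed the threshold without D28 replicate 3 of the females (log2 fold change -1.08, edgeR adjusted p = 0.0676) and without naive replicate 3 of the males (-0.81, edgeR adjusted p = 0.0936). *Lgals9* at 18 months, at 827 CPM (SD 276, n = 7) and 559 CPM (SD 134, n = 7), had a log2 value of -0.61 (SE 0.21, edgeR adjusted p = 0.148). It passed in 5 of the fits that left out a library, with edgeR adjusted p of 0.0664 to 0.0995, namely those without naive replicate 1, D12 replicate 1 or D12 replicate 2 of the females, and without D12 replicate 3 or D28 replicate 4 of the males. Over all genes 11.3% were called at 3 months, 10% at 9 months and 3.49% at 18 months, and of the 5 members 2, 1 and 0 were. The member calls were all lower at D28. Leaving out 1 library moved these shares between 7.12% and 14.2%, 5.54% and 14.5%, and 0.151% and 6.37%. At 18 months the lowest was without D28 replicate 3 and the highest without naive replicate 1 of the females, and without their D12 replicate 4 the share was 0.386%.

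Ages were compared within sex and day. The only member called in 12 comparisons was *Lgals3bp* in D28 females, where 0.698% of all genes were called. It was at 1013, 1930 and 1189 CPM at 18 months and at 447, 601, 643 and 715 CPM at 3 months, so that the groups did not overlap. The log2 value, 18 against 3 months, was 1.19 (SE 0.20, edgeR adjusted p = 0.0110). Marker sums differed between the same groups, with T cell markers at 68.1 to 106 CPM at 18 months and 15.6 to 23.7 CPM at 3 months, microglia markers at 15945 to 22563 and 23263 to 31411 CPM, and border macrophage markers at 0 to 3.52 and 6.51 to 43.8 CPM, none overlapping. Monocyte markers were at 6.36 to 8.20 and 0.254 to 10.1 CPM. Their part in the result was not tested. Without the 18-month-old library at 1930 CPM (D28 replicate 3) it was 0.88 (edgeR adjusted p = 0.103). In the same comparison *Lgals1* had a log2 fold change of 1.68 (SE 0.48, edgeR adjusted p = 0.164), and at D12 in females one of 1.89 (SE 0.59, edgeR adjusted p = 0.220). The first passed without D28 replicate 2 (2.09, edgeR adjusted p = 0.0764) and the second without D12 replicate 1 (2.18, edgeR adjusted p = 0.0735). Without D12 replicate 4, the library with most monocyte marker signal, the D12 value was 0.98 (edgeR adjusted p = 0.595).

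In naive females, 9 against 3 months, *Lgals3* had a log2 fold change of 5.36 (SE 1.43) and *Lgals1* of 3.12 (SE 1.07), each with an edgeR adjusted p of 0.999. Without the naive library at 1995 CPM the values were 1.51 (SE 1.04) and -1.32 (SE 0.51), each with an edgeR adjusted p of 1. In naive males, 9 against 3 months, *Lgals3* and *Lgals3bp* passed only in the fit without naive replicate 1 of the 9-month-olds, which left 1 library in that group (log2 fold change 1.83, edgeR adjusted p = 0.0510, and 1.07, edgeR adjusted p = 0.0184). That lone library is assumed to vary like the others. Of all genes, 0.420% were called at 9 against 3 months in D12 females, 0.0177% in D28 females, and 0% in naive females and in males at each day. Leaving out 1 library, the share ran from 0% to 2.56% in D12 females (highest without D12 replicate 1 of the 9-month-olds, and 1.35% without D12 replicate 4 of the 18-month-olds) and from 0% to 0.265% in D28 females. In naive males it was 18.6% in the fit that called *Lgals3* and *Lgals3bp*. At 18 against 3 months the shares were 0.0625% in D12 females, 0% in naive females, 0.0605% in naive males, 0% in D12 males and 0.00901% in D28 males. With 1 library left out these ran from 0.00893% to 1.26% in D12 females (0.0268% without D12 replicate 4 of the 18-month-olds), from 0.124% to 1.34% in D28 females, from 0.00865% to 0.138% in naive males, and up to 0.0981% and 0.018% in D12 and D28 males. Over the 13 comparisons of every kind with no gene called by edgeR, 357 to 1340 genes had an unadjusted p under 0.05, and DESeq2 called 1 to 45.

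Differences between sexes or ages in the response to injection were tested as an interaction, and no member was called in any of these 10 comparisons. By sex, *Lgals3* at D12 in 9-month-olds had the largest male minus female value, at 3.11 (SE 1.68, edgeR adjusted p = 0.977), and it was -0.72 (SE 1.26) without the naive female library at 1995 CPM. For *Lgals3bp* all 6 male minus female values were above 0, from 0.35 to 1.12, with edgeR adjusted p of 0.633 or more. Without naive replicate 1 of the 18-month-old females, the values at 18 months went from 1.11 to 0.26 at D12 and from 0.39 to -0.46 at D28. The shares of all genes called for sex at D12 were 0.0583%, 0.00809% and 0% at 3, 9 and 18 months, and at D28 0.00833%, 0% and 0%. By age, the change of *Lgals3* at 9 minus 3 months had a value of -3.02 at D12 (SE 0.89, edgeR adjusted p = 0.409) and of -3.63 at D28 (SE 0.91, edgeR adjusted p = 0.618), neither called. Without naive replicate 1 of the 9-month-old females these were -1.11 and -1.71. The D28 value was -3.92 (edgeR adjusted p = 0.0678) without naive replicate 3 of the 9-month-old females, the library at 5.53 CPM. *Lgals3bp* at 18 minus 3 months had a value of -1.0 for D12 (SE 0.36, edgeR adjusted p = 0.237), and of -0.57 (edgeR adjusted p = 0.630) without naive replicate 1 of the 18-month-old females. The shares of all genes called were 0.0368% and 0.155% at D12 and 0% and 0% at D28 for 9 and 18 months. The share of 0.155% ran from 0.0147% without naive replicate 1 of the 3-month-old males to 1.78% without naive replicate 2 of the 18-month-old females, and was 0.589% and 0.0663% without naive replicate 1 of the 9- and of the 18-month-old females.

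The rest of the family was close to absent. *Lgals4*, *Lgals6*, *Lgals7* and *Lgals12* did not exceed 1.23 CPM in any library and were above 3 counts in 1 library at most, and *Lgals2* was above 3 counts in 10 of 62 and did not exceed 4.46 CPM. *Lgalsl*, a galectin-like protein without known sugar binding, had a median level of 3.75 CPM (0.318 to 14.3). None was called in any comparison in which it was tested.

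Among 12 genes for galectin partners, *Cd44*, the hyaluronan receptor, was called most often. It was called higher at D12 against naive in 4 of 6 strata, with a mean level of 47.6 CPM against 6.67 in 3-month-old females (log2 fold change 2.84, SE 0.43, edgeR adjusted p = 0.0024), 54.2 against 5.05 in 3-month-old males (3.36, edgeR adjusted p = 0.000324), 82.6 against 5.28 in 9-month-old females (3.97, edgeR adjusted p = 0.00541) and 42.4 against 5.63 in 18-month-old males (2.93, edgeR adjusted p = 0.000556). Of all genes, 2.43%, 3.77%, 2.52% and 4.16% were called there. It was lower at D28 than at D12 at 3 months (-1.38, edgeR adjusted p = 0.00289) and at 9 months (-1.57, edgeR adjusted p = 0.0102). In D28 females it was higher at 18 than at 3 months, at 41.5 against 17.3 CPM (1.27, edgeR adjusted p = 0.0701), where 0.698% of all genes were called. *Trem2*, a lipid receptor of microglia, was higher at D28 than at D12 at 3 months (0.62, edgeR adjusted p = 0.0018), 9 months (1.46, edgeR adjusted p = 0.0033) and 18 months (0.98, edgeR adjusted p = 0.0354). Its mean levels at D28 and D12 were 2521 and 1659, 2525 and 1033, and 2657 and 1439 CPM. *Trem2* was not called in any comparison with naive. *Lamp2*, a lysosomal membrane protein, fell at 3 months (-0.57, edgeR adjusted p = 0.0230) and *Itgb1*, an integrin chain, at 9 months (-0.65, edgeR adjusted p = 0.0781). *Havcr2*, which encodes Tim-3, was at a median level of 200 CPM (94.0 to 270) and was called nowhere, nor were *Lamp1*, *Ptprc*, *Mertk* and *P4hb*. *Calcoco2*, a partner of galectin-8, was at 0 in all libraries, and *Trim16* and *Tnfrsf9* were mostly at or under 3 counts.

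Of 10 enzymes that build the N-glycans galectins bind, 2 were called in any comparison, where the share of all genes called was 4.16% at D12 against naive in 18-month-old males, and 11.3% and 10% for D28 against D12 at 3 and 9 months. *St6gal1*, which caps galactose with sialic acid, was at 3.58 against 29.8 CPM at D12 against naive in 18-month-old males (log2 fold change -3.14, SE 0.58, edgeR adjusted p = 0.0105), and was higher at D28 than at D12 at 9 months (1.72, edgeR adjusted p = 0.0518). *Man2a1*, a Golgi mannosidase, was lower at D28 than at D12 at 3 months (-0.91, edgeR adjusted p = 0.0451). The *Mgat* genes, *B4galt1*, *Slc35a3* and *B3gnt2* were called in none of 37 comparisons.

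The genes whose levels followed each member most closely over the 62 libraries were found by Pearson's r of log2 CPM among 13564 genes, as a description, since all libraries share the days, the scaling and the depth. *Lgals3bp* was most like *H2-D1* (r = 0.941) and *H2-K1* (r = 0.935), which encode classical MHC class I chains, and *Axl* (r = 0.903), a phagocytic receptor. *H2-D1* went from a median level of 619 CPM naive to 2239 at D12 and 1771 at D28. *Lgals3* was most like *Lilr4b* (r = 0.894), *Lilrb4a* (r = 0.855), both receptor genes, and *Rab7b* (r = 0.816), a small GTPase of endosomes. *Lilr4b* went from 6.69 CPM to 47.8 and 28.4 CPM. *H2-D1* and *H2-K1*, and *Lilr4b* and *Lilrb4a*, have close relatives with which reads can be shared, so their counts are uncertain.

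*Lgals9* was most like *Ube2l6* (r = 0.849), *Gapdh* (r = 0.848) and *Capzb* (r = 0.830). *Gapdh*, which has many processed copies in the genome, stood at a median of only 10.3 CPM in naive libraries, and its count is uncertain. *Lgals1* was most like *Ahnak* (r = 0.656), *Vim* (r = 0.629) and *Crip1* (r = 0.624). *Lgals8* had *Golph3l* (r = 0.891), *4833439L19Rik* (r = 0.885) and *Coq9* (r = 0.884), all of them under 1 CPM in the naive library in which *Lgals8* had 1 count. Without the 2 naive libraries that stood apart, other genes came first for *Lgals1* (*Ccl7*, r = 0.708), *Lgals8* (*Rbak*, r = 0.654) and *Lgals9* (*Eif5a*, r = 0.878), while *H2-D1* (r = 0.944) and *Lilr4b* (r = 0.892) kept theirs. Among the members themselves, *Lgals3* and *Lgals3bp* had the highest pairwise value (r = 0.707), and *Lgals8* and *Lgals9* the lowest (r = -0.251).

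**Figure D4:**
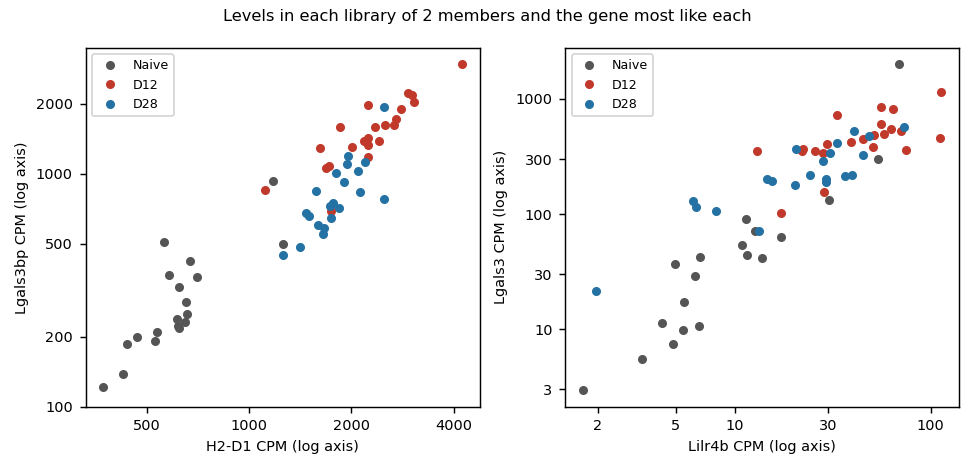
Level of *Lgals3bp* against *H2-D1* (left) and of *Lgals3* against *Lilr4b* (right) in CPM on log axes, with 1 point per library coloured by day. Naive libraries fill the lower left of each panel, and the naive library with *Lgals3* at 1995 CPM sits in the upper right of the second panel with *Lilr4b* at 69.0 CPM.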

How the data were processed

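RNA-seq libraries of sorted retinal microglia were compared. The deposited tables hold raw gene counts, and the authors adjusted 1 of them for the 2 collection days before deposit, so that this table was used and its values are whole-number counts no longer tied to single reads. STAR 2.7.8a, bcl2fastq 2.20, R 4.2.2 and mm10 are named in the submitters' processing notes. Library totals ran from 1468478 to 9836173, which sets the counting precision. Groups came from the sample labels. 1 library of 18-month-old D28 females (replicate 1) was left out by the rule for these genes, and 0 columns of unmapped samples were found.

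Counts were filtered with filterByExpr, scaled by TMM and fitted with edgeR 4.0.16 (R 4.3.3, quasi-likelihood). Days against naive used 1 fit per age and sex with glmTreat, testing for more than a log2 change of 1, and a Benjamini-Hochberg adjusted p under 0.05 over all genes. The other comparisons used glmQLFTest with an adjusted p under 0.1. Each SE was worked back from the glmQLFTest F against no change, as the absolute log2 value over the square root of F. This holds also beside glmTreat p-values. A call means passing these thresholds. Correlations used log2 CPM with a prior count of 2. Levels per kilobase used merged exons of GENCODE M21. Nothing in the labels ties replicates to separate animals beyond 1 retina each, so p-values measure the spread between these libraries. No pair of replicates was identical or within sampling noise. Alternatives were DESeq2 1.42.0, its size factors, no filter, uncorrected counts with and without collection day, a replicate block, other placements of 2 libraries, a plain test, 1 fit of all groups, Spearman correlation and leaving out each library. Scripts were tested on simulated data. The members and lists were chosen with earlier results of these data known. Text names the members, at most 4 called genes of each list with the largest change, and the 3 most similar genes of each member. One marker list is not reported here.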

Additional observations from a re-analysis of the deposited data

Results flagged for a closer look

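In 45 sets of 1 member and 1 group of 4 libraries, 3 held a library whose gap to the nearest other was over Dixon's 95% limit, which chance gives in about 1 of 20 sets. *Lgals8* was at 151.61 CPM in naive replicate 4 of the 3-month-old females, against 89.1 to 98.9 CPM in the others. *Lgals8* was at 122.15 CPM in D28 replicate 4 of the 18-month-old males, against 97.9 to 102 CPM, and this is the library with 2 day labels. *Lgals9* was at 459.33 CPM in D12 replicate 2 of the 9-month-old males, against 829 to 874 CPM.

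A pair of libraries outside the comparisons lay above every naive library in the uncorrected table. D28 replicate 1 of the 18-month-old females had *Lgals3bp* at 1787.1 CPM and *Lgals9* at 1126.6 CPM, and D28 replicate 1 of the 9-month-old males had *Lgals3bp* at 1570 CPM. The highest naive values there were 1312.6 CPM for *Lgals3bp* and 856.27 CPM for *Lgals9*.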

How the results depend on the processing

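Of 1125 recomputed values of 48 named log2 fold changes, 1050 kept their direction and their side of the threshold. The number of member calls was 9 against naive, 3 for D28 against D12, 1 for age, 0 for sex by day and 0 for age by day. Leaving out 1 library gave 8 to 10, 2 to 4, 0 to 3, 0 to 0 and 0 to 1, the last run for naive libraries only (the others were not run). Without a filter on low counts the numbers were 13, 6, 5, 3 and 7. The plain test gave 15 calls against naive, uncorrected counts without a batch term gave 8, 2, 0, 0 and 0, and leaving out both naive libraries that stood apart, chosen after seeing the data, gave 10, 5, 1, 0 and 0. The cause was not tested.

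Values that changed sign were mostly those of 9-month-old females against naive. For *Lgals3* at D12 they were 0.41 with uncorrected counts and collection day as a term, 0.998 with the replicate block and 3.38 without naive replicate 1 (with or without the other naive library), and at D28 0.084, 0.73 and 2.6. For *Lgals1* they were 0.24, 0.75 and 3.59 at D12 and, without that library, 1.93 at D28. *Lgals3* at D28 in 9-month-old males was -0.03 without D28 replicate 2 and -0.33 without naive replicate 1. *Lgals1* at 9 against 3 months in naive females was -1.32 without naive replicate 1 and -1.27 without both libraries, and the male minus female value of *Lgals3* at D12 at 9 months was -0.72 without that library. Leaving out each library in turn, these values ran from -0.98 to 3.38 and -1.76 to 2.6 for *Lgals3* at D12 and D28 in the females, from -0.33 to 3.4 at D28 in the males, from -1.37 to 3.59 and -3.03 to 1.93 for *Lgals1*, from -1.32 to 3.7 for age and from -0.72 to 5.94 for sex.

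Replicate numbers did not pair the samples: deviations correlated at a mean r of -0.0113 for the same number and 0.00405 for other numbers. With the replicate block the member calls were 9, 3, 1, 0 and 0, *Lgals3bp* at 9 months, D28 against D12, was -0.90 (edgeR adjusted p = 0.129) and *Lgals9* at 18 months passed (edgeR adjusted p = 0.0950). One fit of all 18 groups called 6 members against naive. It gained *Lgals3bp* at D12 in 9-month-old males (2.7, edgeR adjusted p = 0.00936) and lost *Lgals3* at D28 in 3-month-old females (edgeR adjusted p = 0.0703) and 18-month-old males (0.556), at D12 in 3-month-old males (0.0633) and *Lgals3bp* at D28 in 3-month-old males (0.574). Uncorrected counts without a batch term lost *Lgals3bp* at D28 in 3-month-old males (edgeR adjusted p = 0.185), *Lgals1* at 3 months, D28 against D12 (0.145), and *Lgals3bp* at 18 against 3 months in D28 females (0.739). Over all genes, 1831, 3010, 143, 9 and 26 calls became 3007, 3557, 1501, 348 and 744 without a filter, 1674, 3896, 964, 89 and 272 with DESeq2, and 1288, 1889, 21, 2 and 2 with uncorrected counts without a batch term. Age calls were 433 with collection day as a term and 276 with the replicate block, which gave 2 for sex by day and 15 for age by day. Age by day calls were 13 with the left-out D28 library kept and 116 with the library of 2 labels at D12, and the plain test gave 5540 against naive. By Spearman correlation, 1 of the 3 genes most like *Lgals8* stayed.

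Groups of 2 to 4 libraries limit every comparison, and 9-month-old males had 2 naive libraries.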
